A study of Mus musculus with 30 samples.

Results

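The amino acid transporters of 7 solute carrier families were followed through 24 h of fasting in 3 tissues of the mouse: the white fat pad beside the epididymis (WAT), the liver (LIV) and thigh muscle (SM). Members were genes on the array whose annotated symbol belongs to Slc1, Slc3, Slc6, Slc7, Slc36, Slc38 or Slc43 and ends in a number. This gave 57 of the 18781 genes measured: 7 of Slc1, 1 of Slc3, 18 of Slc6, 13 of Slc7, 4 of Slc36, 11 of Slc38 and 3 of Slc43. Slc6a20a and Slc6a20b, whose symbols end in a letter, were measured but are counted with the other amino acid carriers below and not as members. Slc7a7, Slc7a10 and Slc3a1 were only on probe sets that also name a neighbouring gene and are not analysed here. The symbols take in 3 carriers of monoamines (Slc6a2, Slc6a3 and Slc6a4), the creatine carrier Slc6a8 and Slc43a3, a carrier of purine bases, none of which moves amino acids as its main load.

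RNA was from male C57Bl/6 J mice, 10-12 weeks old and wild type. The fasted mice had lost access to food from the start of the light phase for 24 h, and the fed mice ate chow ad libitum over the same time. Each of the 6 groups (fed or fasted, in WAT, LIV and SM) comprised 5 arrays labelled as biological replicates. All 3 tissues came from the same 5 fed and 5 fasted mice, so tests between tissues set arrays of shared mice against each other, and which arrays belong to 1 mouse is not stated. The array of fed LIV 4 and that of fasted SM 5 stood apart from their groups and were left out of the means and tests, so these groups have 4 arrays.

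Amino acids do not cross membranes unaided. Secondary active carriers such as those of Slc1, Slc6 and Slc38 couple uptake to the sodium gradient, and those of Slc36 use protons. Light chains of Slc7 exchange 1 amino acid for another, most of them once bound to a heavy chain, which for many but not all is Slc3a2 (CD98). Slc43 carriers let neutral amino acids flow down their gradient. During a fast, muscle protein is broken down and releases alanine and glutamine, and the liver takes up amino acids for gluconeogenesis and urea synthesis. Several of these carriers also lie on lysosomes, where they export the products of proteolysis or report amino acid supply to mTORC1.

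Expression is given as the log2 value of each gene's probe set, on which a difference of 1 is 2-fold. Probe sets bind with different strength, so levels are compared between tissues and diets for 1 gene and not between genes. A gene is said to have risen or fallen where limma gave an adjusted p (Benjamini-Hochberg over all probe sets) under 0.05 and the change was at least 1.3-fold. The standard error (SE) and adjusted p rest on a single variance per probe set shared by all 6 groups, and do not measure the spread within 1 tissue. In tissue pieces, fewer cells of a type and less RNA per cell cannot be told apart. The labelled tissues had their own markers: the mean of 8 adipocyte markers was 11.47 to 12.10 in WAT, that of 7 hepatocyte markers 12.56 to 12.66 in LIV, and that of 9 muscle fibre markers 12.47 to 12.59 in SM.

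Fasting changed 13 transporters in WAT, 9 up and 4 down, which is 22.8% of the members against 15.7% of all genes. In LIV 6 changed, 2 up and 4 down, or 10.5% against 7.54%. In SM 14 changed, 10 up and 4 down, or 24.6% against 13.6%. The members' share was above the background mainly among genes that rose, at 15.8% in WAT (7.99% of all genes) and 17.5% in SM (7.80%). In LIV the share that rose was 3.51% beside 3.54% of all genes. The shares that fell were 7.02% in each tissue, beside 7.75% in WAT, 4.01% in LIV and 5.78% in SM. The median change over the members was −0.01 in WAT, 0.07 in LIV and 0.02 in SM, beside 0.01, 0.03 and 0 over all genes. Fed and fasted arrays did not overlap for 12 members in WAT (all genes 21.6%), 15 in LIV (17.3%) and 15 in SM (22.9%).

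**Figure D1:**
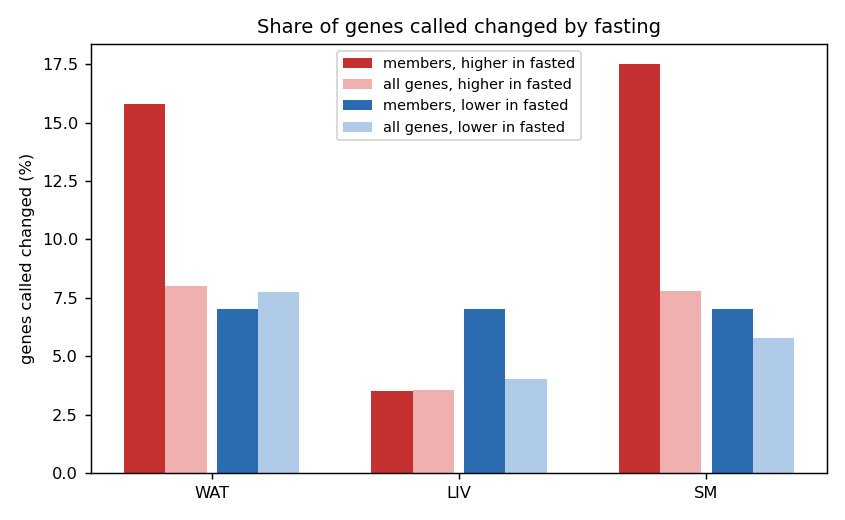
Share of genes (y axis, %) that rose (red) or fell (blue) in fasted WAT, LIV and SM (x axis), with the 57 transporters in dark and all 18781 genes in pale bars. The dark red bars stand at 15.8% in WAT and 17.5% in SM, above the pale ones at 7.99% and 7.80%.

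A total of 23 members changed in at least 1 tissue (40.4%, all genes 28.6%), and 9 changed in at least 2 (15.8%, all genes 7.27%). These 9 were Slc43a1, Slc43a2, Slc43a3, Slc3a2, Slc7a8, Slc7a2, Slc1a1, Slc6a6 and Slc6a13. Slc7a8 alone changed in all 3 tissues (1.75%, all genes 1.02%). Slc7a8, Slc7a2 and Slc6a6 went in opposite directions in a pair of tissues (5.26%, all genes 1.3%). For Slc7a2 this rests on a fall in WAT whose call was lost on leaving out any 1 of 5 of the WAT arrays. A further 34 members changed nowhere. Of the 23 that changed, 22 had a mean above 5.02, the median level of all probe sets, in at least 1 group, and Slc6a21 was the exception. The 26 members below that median in every group had group means between 2.83 (Slc7a12) and 4.51 (Slc7a4). They include carriers known from neurons, kidney and gut such as Slc6a19, Slc7a9, Slc6a15 and Slc6a18.

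**Figure D2:**
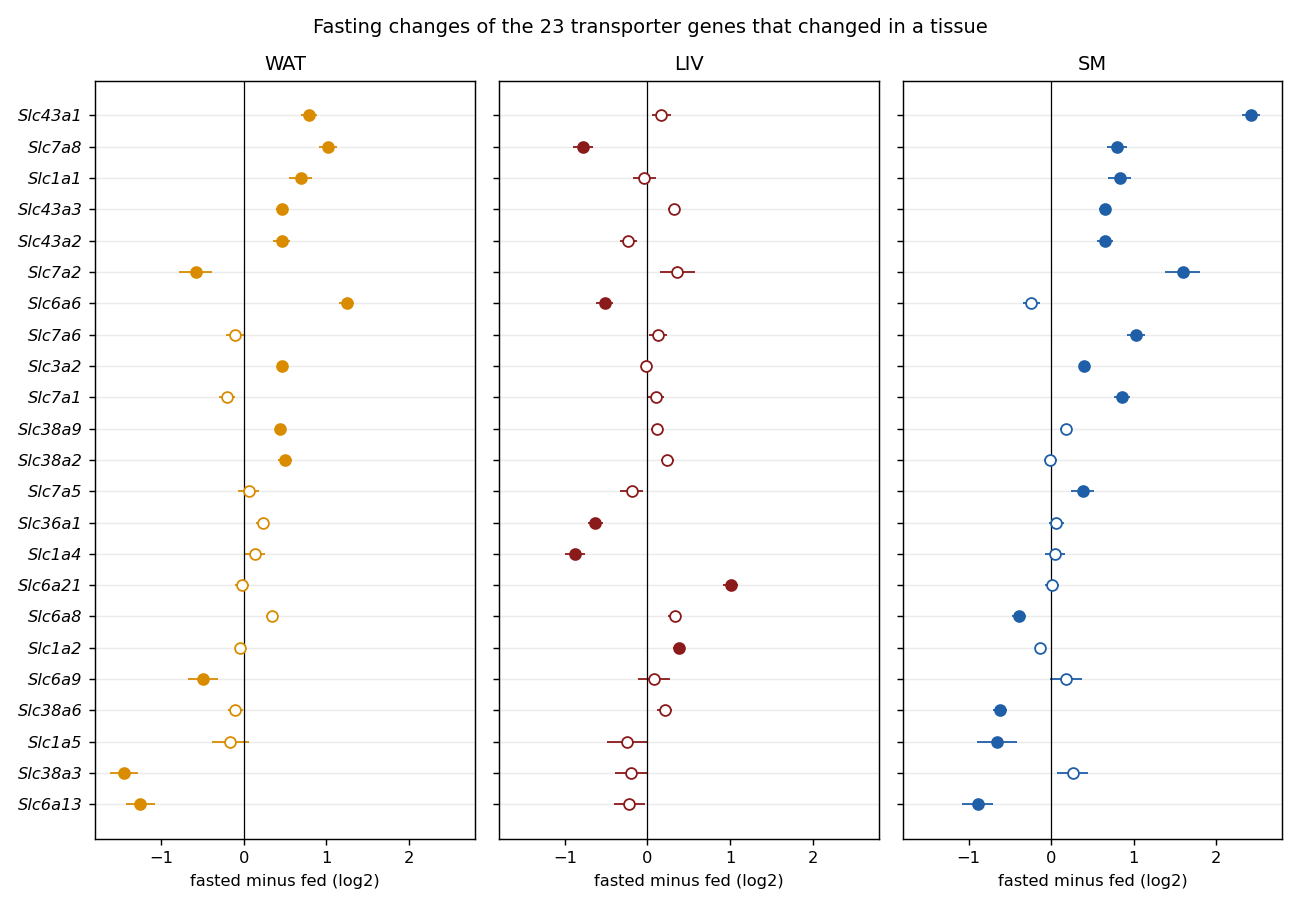
Fasted minus fed (x axis, log2, with the standard error as a bar) for the 23 transporters that changed in at least 1 tissue, in WAT, LIV and SM. Filled points passed the test and open points did not: Slc43a1 in SM lies farthest to the right at 2.42 and Slc38a3 in WAT farthest to the left at −1.45.

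In fed mice the levels of most carriers above the median level of all probe sets differed between tissues. Of these 31 members, 27 were higher in 1 tissue than in the next by the test, which is 87.1% against 62.7% of the 12089 genes above that level. A gene entered either set through any 1 group mean above the level, so genes high in only 1 tissue were taken in through that tissue. The shares of the 31 and of the 12089 depend in part on this selection, while the counts over all 57 members do not. The leading tissue was WAT for 15 (48.4%, all such genes 23%), LIV for 10 (32.3%, all such genes 18.6%) and SM for 2 (6.45%, all such genes 21.1%). Over all 57 members, 32 differed between fed WAT and fed LIV (all genes 44.4%), 28 between SM and LIV (47.9%) and 30 between SM and WAT (47.2%). As shares of the members these are 56.1%, 49.1% and 52.6%. Of the 32, 19 were higher in WAT (33.3%, all genes 25.7%) and 13 in LIV (22.8%, all genes 18.7%). Of the 28, 11 were higher in SM (19.3%, all genes 26.2%) and 17 in LIV (29.8%, all genes 21.8%). Of the 30, 6 were higher in SM (10.5%, all genes 20.1%) and 24 in WAT (42.1%, all genes 27.1%). For 10 of the 31 (32.3%, all such genes 8.5%) the range between tissues was over 4 on the log2 scale, while others led by little, such as Slc1a4 at 5.89 in LIV and 5.49 in WAT.

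LIV was the highest tissue of Slc38a4 (SNAT4, which takes up small neutral and basic amino acids) at 12.33, with 11.06 in SM and 4.27 in WAT. It also led for Slc38a3 (SNAT3, the glutamine and histidine carrier) at 12.34, with 9.69 in SM and 5.46 in WAT. In both cases each tissue differed from the next. Slc7a2, the arginine and lysine carrier CAT2, followed the same order at 11.46, 9.29 and 5.93. Slc6a12, a carrier of betaine and GABA, was at 10.71 in LIV, 5.96 in WAT and 4.70 in SM. Slc1a2, best known as the glutamate carrier of astrocytes, was at 9.44 in LIV, while its 3.86 in SM and 3.82 in WAT did not differ (difference 0.04 ± 0.06 SE, adjusted p = 0.617).

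WAT was highest for Slc1a5 (ASCT2, an exchanger of glutamine and other neutral amino acids) at 12.25, followed by SM at 8.60 and LIV at 5.28. The range of 6.97 is the largest among the members led by WAT. Slc36a2, a proton coupled carrier of glycine, alanine and proline, stood at 10.24 in WAT, 5.73 in SM and 3.86 in LIV. The glutamate and aspartate carrier Slc1a3 came to 10.88, 6.97 and 5.00 in the same order. The members led by SM were the creatine carrier Slc6a8 (10.32, against 7.90 in WAT and 6.94 in LIV) and Slc38a2, the system A carrier SNAT2 (10.96, against 10.58 in LIV and 9.90 in WAT).

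The other 4 of the 31 did not pass between their highest 2 tissues. Slc6a6 was at 9.79 in LIV and 9.76 in SM (adjusted p = 0.859). For Slc7a5 (WAT 6.87 and LIV 6.54, adjusted p = 0.0452) and Slc38a10 (WAT 8.99 and LIV 8.76, adjusted p = 0.00105) the difference was below 1.3-fold. For Slc38a9, the lysosomal arginine sensor, no pair of tissues passed: the means were 7.76 in WAT, 7.70 in SM and 7.64 in LIV.

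**Figure D3:**
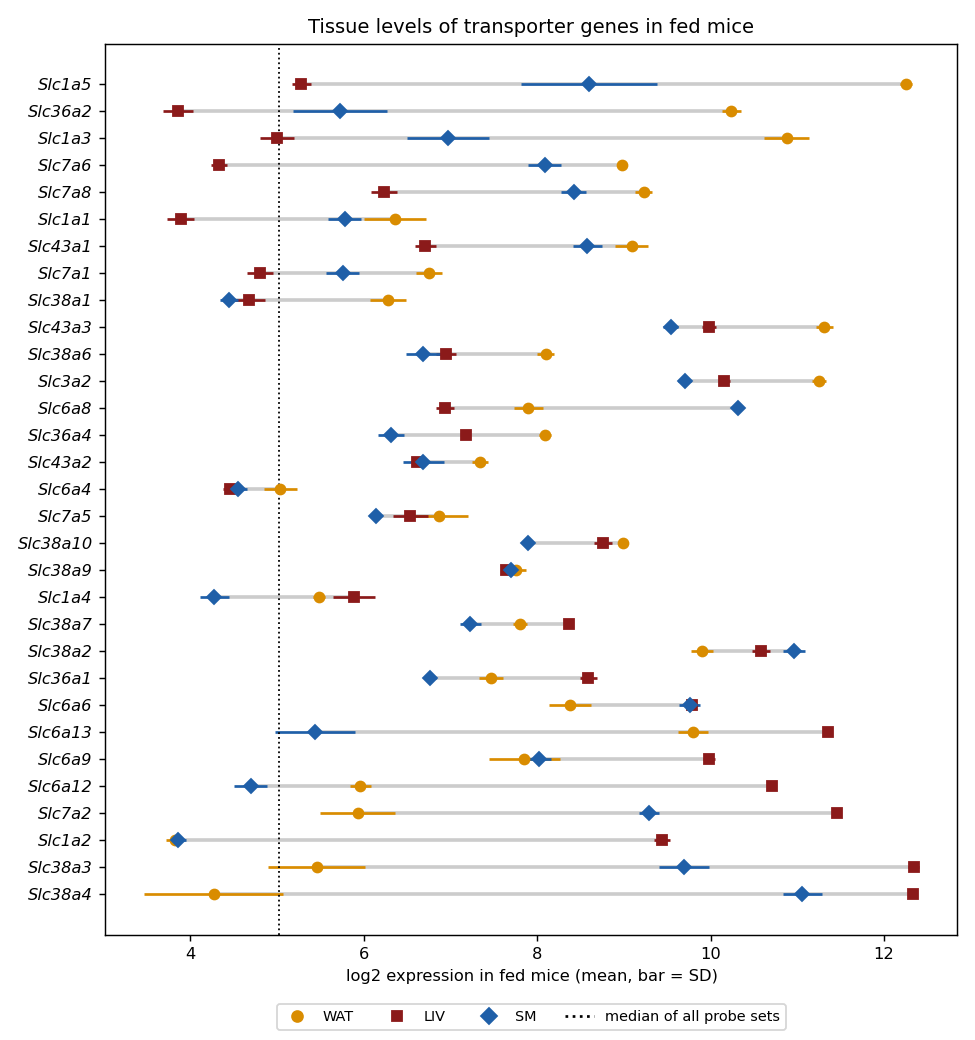
Mean log2 expression in fed mice (x axis, bar = SD over 5 arrays in WAT and SM and 4 in LIV) of the 31 transporters above the median level of all probe sets (dotted line, 5.02) in at least 1 group. Rows are ordered by the WAT mean minus the LIV mean, from Slc1a5 (WAT 12.25, LIV 5.28) at the top to Slc38a4 (LIV 12.33, WAT 4.27) at the bottom.

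Promoter sequences of RefSeq (GRCm38.p6, 250 bases before to 50 after a start site) were available for 40 of the 57 members and were searched on both strands for 5 motifs. Some genes had several windows, up to 5, and a gene was counted if any of them held the motif. For some genes, among them Slc43a1 and Slc7a11, the window lies inside the span of the gene and not at its outer end. The E-box CACGTG, bound by the lysosomal regulators of the TFEB family and by others, was found in 9 of the 40 and in 8.09% of 27025 promoters. The C/EBP-ATF response element TGATGNAAN was found in 3 of the 40 (Slc7a11, Slc1a4 and Slc6a21) and in 4.50% of all promoters, and the forkhead motif GTAAACA in 2 of the 40 and in 4.05%. The full glucocorticoid response element and the direct repeat 1 of nuclear receptors, searched by their consensus letters, were in none of the 40, and in 0.01% and 0.05% of all promoters. Of the 5 members with a promoter that rose in both WAT and SM, 1 held the E-box and none the others. Of the 16 with a promoter that changed in any tissue, 2 held the E-box: Slc43a1, which rose in WAT and SM, and Slc36a1, which fell in LIV. The other members with an E-box changed in no tissue. The response element was in 2 of the 16: Slc1a4, which fell in LIV, and Slc6a21, which rose there. None of the 16 held the forkhead motif. A match is a description of the letters and not of binding.

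The promoter of Slc43a1 (chr2:84840073-84840372, plus strand) is shown for the member with the largest change, that of Slc1a4 (chr11:20332664-20332963, minus strand) for the member with the largest fall in LIV, and that of Slc7a11 (chr3:50443564-50443863, minus strand) as the member with 2 matches to the response element, which did not change in any tissue. Capitals mark the E-box in Slc43a1 and the response element, on either strand, in Slc1a4 and Slc7a11.
Slc43a1: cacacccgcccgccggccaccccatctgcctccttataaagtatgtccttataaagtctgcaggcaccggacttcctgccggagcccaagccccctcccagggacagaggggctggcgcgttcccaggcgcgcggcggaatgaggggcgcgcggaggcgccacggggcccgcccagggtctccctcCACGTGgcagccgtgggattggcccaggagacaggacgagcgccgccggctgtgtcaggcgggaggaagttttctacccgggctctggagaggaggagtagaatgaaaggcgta
Slc1a4: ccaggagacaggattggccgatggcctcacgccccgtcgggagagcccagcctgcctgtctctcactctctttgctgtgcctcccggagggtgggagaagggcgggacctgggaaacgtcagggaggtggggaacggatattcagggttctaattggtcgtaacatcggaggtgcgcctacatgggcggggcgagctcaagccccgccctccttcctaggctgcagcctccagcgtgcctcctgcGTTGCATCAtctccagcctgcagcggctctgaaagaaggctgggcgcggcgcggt
Slc7a11: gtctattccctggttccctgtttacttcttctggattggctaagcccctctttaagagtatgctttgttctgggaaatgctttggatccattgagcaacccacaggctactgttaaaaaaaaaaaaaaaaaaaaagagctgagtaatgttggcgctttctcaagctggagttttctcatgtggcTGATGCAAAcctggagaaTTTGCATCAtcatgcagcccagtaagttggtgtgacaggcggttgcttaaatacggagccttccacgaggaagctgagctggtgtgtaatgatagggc
The element in Slc1a4 lies on the reverse strand across the start of the gene, and the matches in Slc7a11 face both ways.

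The 3 facilitated carriers of Slc43 rose together in WAT and in SM and did not pass the test in LIV. Slc43a1 (LAT3, a carrier of branched-chain amino acids and phenylalanine) made the largest change of any member. In fed SM its arrays read 8.48, 8.63, 8.53, 8.84 and 8.39, and in fasted SM 10.82, 11.00, 11.00 and 11.18. The lowest fasted array was well above the highest fed one. The rise was 2.42 ± 0.11 (SE), or 5.36-fold, with an adjusted p of 6.3e-15. In WAT the same gene moved from 8.85, 9.12, 9.38, 9.01 and 9.10 to 9.85, 9.63, 9.86, 10.24 and 9.81, again without overlap, a rise of 0.79 ± 0.10 (adjusted p = 1.37e-06). LIV arrays lay at 6.60 to 6.84 in fed and 6.68 to 6.99 in fasted mice and overlapped (change 0.17 ± 0.11, adjusted p = 0.368). The rise in SM exceeded that in WAT by 1.64 ± 0.15 (adjusted p = 1.23e-08). In fed mice Slc43a1 was higher in WAT than in SM by 0.52, whereas the fasted means were 9.88 in WAT and 11.00 in SM. The fasted tissues were not tested against each other.

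Slc43a2 (LAT4), a second carrier of branched-chain amino acids, read 6.86, 6.87, 6.81, 6.59 and 6.31 in fed SM and 7.18, 7.15, 7.43 and 7.60 in fasted SM, a rise of 0.65 ± 0.10 (adjusted p = 2.49e-05). In WAT it rose by 0.46 ± 0.10 (adjusted p = 6.29e-04), from 7.22 to 7.43 over the fed arrays to 7.58 to 7.89 over the fasted ones. In LIV its change was −0.23 ± 0.10 (adjusted p = 0.157), and the SM change was above the LIV change by 0.88 ± 0.15 (adjusted p = 8.39e-05). Slc43a3, the purine base carrier of the family, read 9.52, 9.59, 9.47, 9.67 and 9.45 in fed SM against 10.35, 10.12, 10.00 and 10.29 in fasted SM (rise of 0.65 ± 0.07). In WAT it rose by 0.46 ± 0.07. In LIV its difference of 0.32 ± 0.07 had an adjusted p of 0.00346 but was below 1.3-fold. The fed and fasted arrays of Slc43a2 and Slc43a3 did not overlap in WAT, SM or LIV. In LIV Slc43a2 was lower in fasted mice (6.57 to 6.69 in fed, 6.22 to 6.53 in fasted). Slc43a3 was higher there (9.86 to 10.05 in fed, 10.07 to 10.42 in fasted).

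The heavy chain Slc3a2 and the light chains of Slc7, not all of which pair with it, moved by different amounts. Slc3a2, the CD98 heavy chain that brings most light chains to the membrane, read 11.24, 11.17, 11.20, 11.37 and 11.30 in fed WAT and 11.61, 11.66, 11.73, 11.86 and 11.79 in fasted WAT. In SM it went from 9.72, 9.65, 9.82, 9.68 and 9.62 to 10.17, 10.07, 10.09 and 10.08. Neither tissue had overlapping arrays. The rise was 0.47 ± 0.05 in WAT (adjusted p = 1.46e-07) and 0.40 ± 0.06 in SM (adjusted p = 5.36e-06). The LIV change was −0.02 ± 0.06, and both rises exceeded it (by 0.50 ± 0.08 in WAT and 0.43 ± 0.08 in SM).

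Of the 8 light chains measured, 1 rose in WAT, 3 rose in SM and 1 fell in LIV. Slc7a8 (LAT2), which exchanges neutral amino acids, accounted for a change in every tissue. Its WAT arrays went from 9.18, 9.23, 9.12, 9.38 and 9.23 in fed to 10.05, 10.21, 10.05, 10.63 and 10.33 in fasted mice, a rise of 1.02 ± 0.11 (adjusted p = 4.52e-08). In SM they went from 8.28, 8.32, 8.43, 8.65 and 8.44 to 9.16, 9.19, 9.06 and 9.47, a rise of 0.80 ± 0.12 (adjusted p = 7.48e-06). LIV went the other way, from 6.06, 6.18, 6.32 and 6.40 to 5.59, 5.33, 5.25, 5.33 and 5.79, a change of −0.78 ± 0.12 (adjusted p = 2.2e-05). No tissue had a fasted array inside the fed range. The difference between the WAT and LIV changes was 1.81 ± 0.16 (adjusted p = 6.44e-09), and that between SM and LIV was 1.58 ± 0.16 (adjusted p = 8.75e-08).

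Slc7a6 (y+LAT2), which exports basic amino acids in exchange for neutral ones, rose in SM. Fed SM arrays read 7.97, 8.19, 8.08, 8.35 and 7.85 and fasted ones 8.92, 9.15, 9.10 and 9.30. The groups were far apart, with a rise of 1.03 ± 0.11, or 2.04-fold (adjusted p = 6.72e-08). Its WAT change of −0.10 ± 0.11 was lower than that by 1.13 ± 0.15 (adjusted p = 5.34e-06). Slc7a5 (LAT1), the exchanger of large neutral amino acids, was near the threshold in SM at 0.38 ± 0.14 (adjusted p = 0.0462), with fed arrays of 6.06 to 6.19 and fasted arrays of 6.20 to 6.73. The call was lost when any of the 9 SM arrays but fasted SM 2 was left out, with adjusted p between 0.0563 and 0.165. Slc7a11 (xCT), the cystine carrier, was dim in all groups at means of 3.16 to 3.34.

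Cationic carriers changed in SM and WAT. Slc7a2 (CAT2) read 9.13, 9.21, 9.44, 9.37 and 9.31 in fed SM and 10.72, 10.89, 10.81 and 11.10 in fasted SM. Every fasted array was more than 1 above every fed one, and the rise was 1.59 ± 0.21, or 3.01-fold (adjusted p = 1.62e-06). In WAT the arrays read 6.12, 5.62, 6.56, 5.89 and 5.46 in fed and 4.98, 5.36, 5.16, 4.82 and 6.39 in fasted mice. These overlapped, since fasted WAT 5 was higher than 4 of the 5 fed arrays. The WAT change of −0.58 ± 0.20 (adjusted p = 0.028) did not pass without fed WAT 1 or 3 or fasted WAT 1, 3 or 4 (adjusted p from 0.0673 to 0.114). In LIV, its highest tissue, Slc7a2 was 0.36 ± 0.21 higher in fasted mice (adjusted p = 0.301), with fed arrays of 11.43 to 11.48 and fasted arrays of 11.63 to 11.97.

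Slc7a1 (CAT1), the arginine and lysine carrier of most cells, also rose in SM. Its arrays went from 5.86, 5.90, 5.89, 5.44 and 5.74 to 6.76, 6.48, 6.66 and 6.59, without overlap (rise of 0.86 ± 0.10, adjusted p = 2.68e-07). The SM change exceeded that in WAT (−0.20 ± 0.10) by 1.06 ± 0.14 (adjusted p = 3.49e-06) and that in LIV (0.10 ± 0.10) by 0.76 ± 0.14 (adjusted p = 3.44e-04). The other 3 cationic carriers or relatives, Slc7a3, Slc7a4 and Slc7a14, were dim and did not change.

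**Figure D4:**
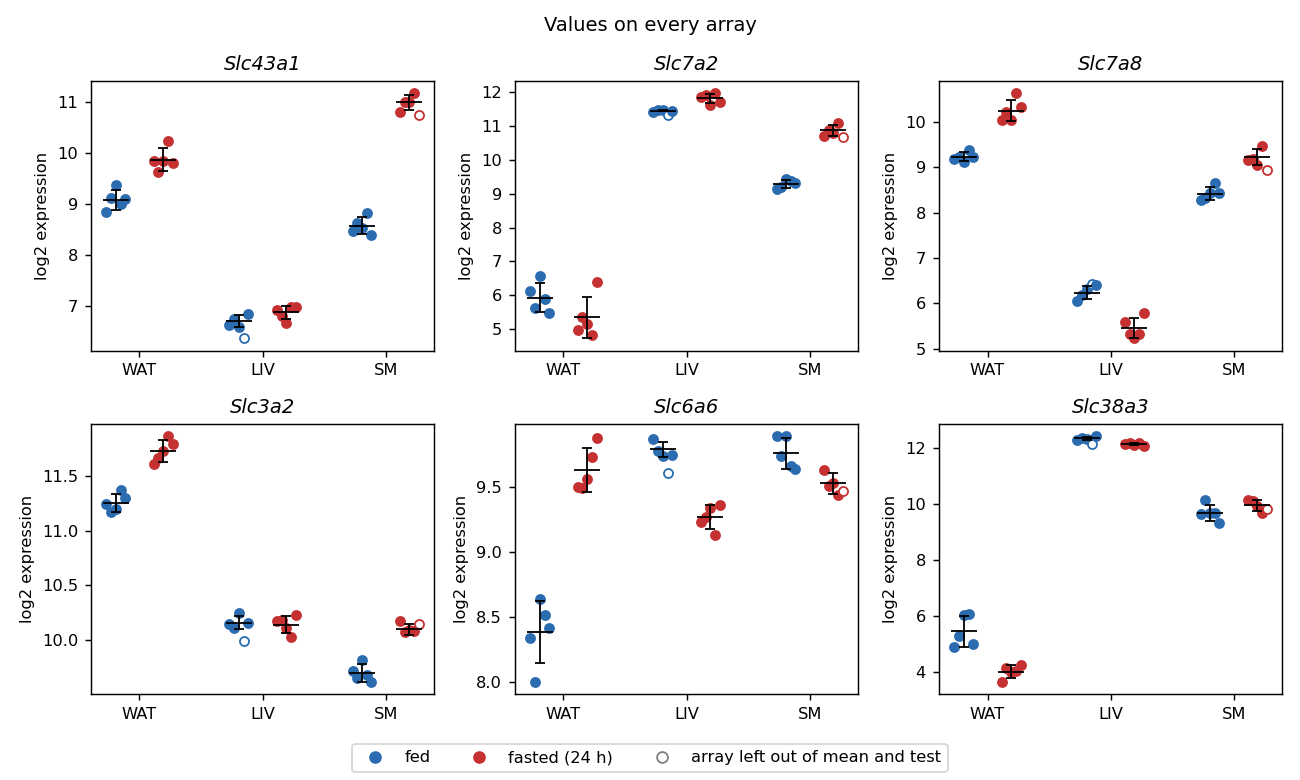
Log2 expression (y axis) on every array of Slc43a1, Slc7a2, Slc7a8, Slc3a2, Slc6a6 and Slc38a3 in WAT, LIV and SM (x axis) of fed (blue) and fasted (red) mice, with black bars for mean and SD and open circles for the arrays left out. Slc43a1 and Slc7a2 rose in SM (to 11.00 and 10.88), whereas Slc6a6 rose in WAT (8.38 to 9.63) and fell in LIV (9.79 to 9.27).

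Among the carriers of GABA, taurine, creatine and betaine, Slc6a6 changed in opposite directions in WAT and LIV. Slc6a6 takes up taurine, which the liver conjugates to bile acids and which muscle stores. Fed WAT read 8.34, 8.0, 8.64, 8.51 and 8.41 and fasted WAT 9.50, 9.49, 9.56, 9.73 and 9.88. In LIV the arrays went from 9.87, 9.78, 9.74 and 9.75 down to 9.23, 9.27, 9.34, 9.13 and 9.36. Both shifts were free of overlap, with a rise of 1.25 ± 0.09 in WAT (adjusted p = 4.42e-11) and a change of −0.52 ± 0.10 in LIV (adjusted p = 3.53e-04). They differed by 1.77 ± 0.13 (adjusted p = 3.87e-10). The SM change was −0.24 ± 0.10 (adjusted p = 0.0823). In fed mice WAT was the tissue with the least Slc6a6, whereas the fasted means were 9.63 in WAT, 9.53 in SM and 9.27 in LIV, which were not tested against each other.

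Slc6a13 (GAT2), a GABA and taurine carrier of liver and kidney, fell in WAT and SM. WAT arrays moved from 9.94, 9.93, 9.55, 9.69 and 9.87 to 8.43, 8.90, 8.88, 7.76 and 8.78, a change of −1.25 ± 0.18 (adjusted p = 4.12e-06). SM arrays moved from 6.11, 5.62, 5.41, 4.95 and 5.08 to 4.74, 4.49, 4.59 and 4.36, a change of −0.89 ± 0.19 (adjusted p = 7.78e-04). The groups did not overlap in either tissue. The LIV change was −0.22 ± 0.19 (adjusted p = 0.521), although its fed arrays of 11.34 to 11.38 and fasted arrays of 10.95 to 11.26 did not overlap either. Slc6a8, the creatine carrier, fell in SM from 10.35, 10.25, 10.37, 10.34 and 10.30 to 9.99, 9.95, 9.90 and 9.87 (change −0.39 ± 0.08, adjusted p = 4.75e-04). In WAT and LIV its differences of 0.34 ± 0.07 and 0.33 ± 0.08 had adjusted p of 9.3e-04 and 0.005 but were below 1.3-fold, and the SM change was lower than that in WAT by 0.73 ± 0.11 (adjusted p = 1.89e-05).

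Of the 10 other amino acid carriers of Slc6, Slc6a9 and Slc6a21 changed. Slc6a9 (GlyT1) takes up glycine. In WAT its arrays read 7.72, 7.56, 8.38, 8.15 and 7.42 in fed and 6.83, 7.55, 7.24, 7.05 and 8.10 in fasted mice, and the groups overlapped. The change of −0.49 ± 0.18 (adjusted p = 0.0401) did not pass without fed WAT 3 or 4 or fasted WAT 1, 3 or 4 (adjusted p from 0.0819 to 0.155). Slc6a21, for which no substrate is known, rose in LIV from 3.38, 3.39, 3.41 and 3.68 to 4.57, 4.60, 4.30, 4.66 and 4.24 (rise of 1.01 ± 0.09, adjusted p = 7.86e-09). The groups were apart, yet both were below the median level of all probe sets.

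Of the 11 carriers of Slc38, which include those of glutamine, Slc38a2, Slc38a3 and Slc38a9 changed in WAT, Slc38a6 in SM and none in LIV. Fed and fasted LIV arrays still did not overlap for Slc38a2 (10.43 to 10.64 and 10.72 to 10.91) and Slc38a4 (12.33 to 12.34 and 12.36 to 12.50). They were also apart for Slc38a3, which was lower in fasted LIV (12.28 to 12.41 and 12.08 to 12.18, change −0.20 ± 0.19, adjusted p = 0.554). Such separation was seen for 17.3% of all genes in LIV. Slc38a3, the system N carrier named above for LIV, made the largest fall of any member. Fed WAT read 4.91, 5.29, 6.03, 6.09 and 5.00 and fasted WAT 3.66, 4.15, 4.01, 4.03 and 4.24. All fasted arrays were lower, at levels below the median of all probe sets. The change was −1.45 ± 0.17, or 2.72-fold (adjusted p = 3.21e-07), and it was lower than the SM change of 0.26 ± 0.19 by 1.70 ± 0.25 (adjusted p = 1.96e-05). Of the 3 system A carriers, Slc38a2 rose in WAT by 0.50 ± 0.08 (adjusted p = 1.87e-05), from fed arrays of 9.76 to 10.04 to fasted arrays of 10.22 to 10.66. In SM, its highest tissue, the change was −0.01 ± 0.08. The WAT change did not pass against that in LIV (0.26 higher, adjusted p = 0.132). Slc38a1 and Slc38a4 did not change in any tissue.

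The lysosomal sensor Slc38a9 rose in WAT by 0.44 ± 0.06 (adjusted p = 3.78e-06), with fed arrays of 7.68 to 7.94 and fasted arrays of 8.09 to 8.34. A second probe set for the gene, dimmer at 5.59 in fed WAT, gave 0.14, and the mean of both gave 0.29 and no call. Slc38a6, a family member of uncertain transport function, fell in SM from 6.83, 6.77, 6.83, 6.68 and 6.36 to 6.33, 5.89, 5.98 and 6.09. The highest fasted array lay just under the lowest fed one (change −0.62 ± 0.09, adjusted p = 1.32e-05). The proton coupled Slc36a1 (PAT1), which exports small amino acids from lysosomes, fell in LIV from 8.55, 8.68, 8.47 and 8.65 to 8.14, 8.0, 8.10, 7.60 and 7.95. The change was −0.63 ± 0.09 (adjusted p = 1.22e-05), lower than that in WAT (0.23 ± 0.08, below 1.3-fold) by 0.86 ± 0.12 (adjusted p = 1.22e-05).

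Glutamate carriers differed by tissue. Slc1a1 (EAAC1), which takes up glutamate, aspartate and cysteine, rose in WAT and SM. Its WAT arrays read 6.89, 6.49, 6.14, 5.96 and 6.32 in fed and 7.20, 6.77, 7.33, 7.15 and 6.80 in fasted mice, overlapping through fed WAT 1 (rise of 0.69 ± 0.14, adjusted p = 2.74e-04). SM arrays went from 5.71, 5.52, 5.73, 6.00 and 5.92 to 6.60, 6.59, 6.44 and 6.81 with no overlap (rise of 0.83 ± 0.14, adjusted p = 7.15e-05). A second, dimmer probe set of the gene gave 0.36 in WAT and 0.23 in SM. Slc1a2 rose in LIV by 0.38 ± 0.07 (adjusted p = 1.59e-04), from 9.44, 9.32, 9.52 and 9.46 to 9.84, 9.88, 9.71, 9.83 and 9.84, a change that sits at the 1.3-fold minimum and drops below it without fed LIV 2 or fasted LIV 1, 2, 4 or 5 (0.34 to 0.38). Slc1a3 did not change.

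Both neutral exchangers of Slc1 fell in 1 tissue. Slc1a4 (ASCT1), which moves alanine, serine and cysteine, fell in LIV from 5.89, 5.57, 5.93 and 6.15 to 5.23, 4.94, 5.04, 4.75 and 5.09, with no overlap. The change was −0.88 ± 0.12, or 1.84-fold (adjusted p = 1.07e-05), while in WAT it was 0.14 ± 0.12 and in SM 0.05 ± 0.12. The LIV change was lower than the others by 1.02 ± 0.17 (adjusted p = 7.96e-05) and 0.92 ± 0.18 (adjusted p = 3.98e-04).

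Slc1a5 (ASCT2) was 0.66 lower in fasted SM (SE 0.24, adjusted p = 0.0469), with fed arrays of 9.45, 8.85, 9.11, 7.58 and 8.01 and fasted arrays of 8.50, 8.02, 7.84 and 7.43. The groups overlapped widely, and the fed arrays alone spanned nearly 2 on the log2 scale. The mean of 8 adipocyte markers on the same arrays was 9.64, 8.89, 9.36, 7.49 and 8.03 in fed SM and 8.48, 8.06, 8.12 and 7.55 in fasted SM, so the arrays kept nearly the same order in both measures. Of these markers Plin1 (−1.25), Lep (−1.66) and Retn (−1.14) were lower in fasted SM and 5 were not. With the marker mean as a covariate in a fit of the SM arrays, an analysis chosen after seeing the data, the change of Slc1a5 was −0.09 (adjusted p = 0.527). Slc7a5 (0.35, adjusted p = 0.0688) and Slc6a8 (−0.37, under 1.3-fold) also lost their calls in that fit, and 11 of the 14 members kept theirs, with Slc43a1 at 2.34, Slc7a2 at 1.53, Slc7a1 at 0.98, Slc7a6 at 0.96 and Slc6a13 at −0.61. Slc1a5 lost its call in 32 of the 44 settings in which it was fitted, among them leaving out any SM array but fed SM 4 or 5 or fasted SM 1 (adjusted p from 0.0668 to 0.206).

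**Figure D5:**
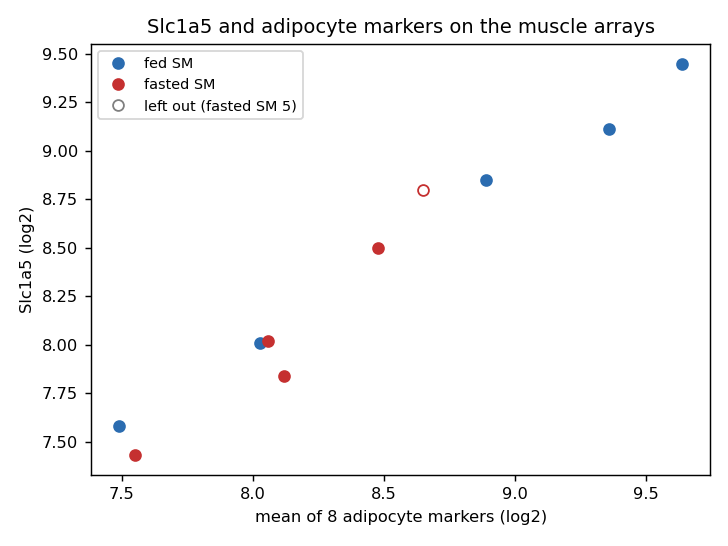
Slc1a5 (y axis, log2) against the mean of 8 adipocyte markers (x axis, log2) on the 5 fed (blue) and 4 fasted (red) SM arrays, with the left-out array fasted SM 5 as an open circle. Arrays with a higher marker mean broadly had a higher Slc1a5, from 7.58 at a marker mean of 7.49 (fed SM 4) to 9.45 at 9.64 (fed SM 1).

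Markers of other cells moved with diet too. In LIV 4 of 8 macrophage markers were lower in fasted mice (Adgre1, Csf1r, Clec4f and Lyz2), and the mean of the list was 7.15 to 7.53 in fed and 6.66 to 7.20 in fasted LIV. In WAT 1 of 8 adipocyte markers was lower (Lep, −1.93), with a list mean of 11.91 to 12.10 in fed and 11.47 to 11.90 in fasted mice. Of 8 macrophage markers, 2 were higher in fasted WAT (Cd163 and Cd14) and 2 in fasted SM (Cd163 and Cd68), with list means of 7.92 to 8.13 in fed and 8.02 to 8.48 in fasted WAT, and of 6.02 to 6.39 in fed and 6.13 to 6.66 in fasted SM. Of 8 adipocyte markers, Cidec was higher in fasted LIV (2.35), with list means of 5.56 to 5.79 in fed and 5.88 to 5.99 in fasted LIV. In WAT the muscle marker Acta1 (1.53) and the hepatocyte markers Tat (0.54) and Hpd (0.74) were higher in fasted mice, with list means of 4.44 to 4.63 and 4.52 to 5.09 for muscle fibres and of 4.36 to 4.64 and 4.64 to 4.87 for hepatocytes in fed and fasted WAT. Of 2 measured Schwann cell and nerve markers Pmp22 was lower in fasted WAT (−0.89), and their mean was 8.06 to 8.21 in fed and 7.5 to 7.83 in fasted WAT. Of 6 endothelial markers Kdr was lower in fasted SM (−0.82), with list means of 8.51 to 8.83 in fed and 8.34 to 8.59 in fasted SM. The epididymis marker Defb1 was higher in fasted LIV (1.32), with list means of 3.64 to 3.80 in fed and 3.86 to 4.02 in fasted LIV. The mean of 7 slow fibre markers was 5.39 to 10.21 in fed SM and 8.34 to 9.86 in fasted SM, and with it as a covariate all 14 SM calls were kept. Fasted SM 3 held transcripts of 2 of 6 epididymis and testis markers, with Lcn8 at 8.11 against 3.51 to 3.75 on the other SM arrays and a list mean of 4.75 as the highest of fasted SM (fed SM 3.47 to 3.61). Without it 11 members changed in SM, and Slc1a5, Slc7a5 and Slc6a8 were those lost. Apart from the fits with the adipocyte and slow fibre means, the part of these cells' RNA in the results was not tested.

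The changes differed between tissues for many members. WAT and LIV changes differed for 14 members (24.6%, all genes 16.1%), WAT and SM changes for 9 (15.8%, all genes 15.1%), and SM and LIV changes for 17 (29.8%, all genes 15.3%). The change was higher in WAT than in LIV for 8 members (14%, all genes 8.17%) and lower for 6 (10.5%, all genes 7.9%). It was higher in WAT than in SM for 4 (7.02%, all genes 7.36%) and lower for 5 (8.77%, all genes 7.7%). It was higher in SM than in LIV for 12 (21.1%, all genes 7.98%) and lower for 5 (8.77%, all genes 7.29%). The Slc43 carriers, Slc3a2, Slc7a8 and Slc1a1 rose in both WAT and SM, and among these Slc43a1 rose more in SM. Slc7a1, Slc7a2, Slc7a6 and Slc38a3 also had the higher change in SM, while Slc6a6, Slc6a8, Slc38a2 and Slc38a6 had it in WAT.

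Genes that work with these carriers gave the surrounding picture. Of 24 other amino acid and peptide carriers measured, 2 rose and 1 fell in WAT, 4 rose and 1 fell in LIV, and 5 rose and 2 fell in SM, with medians of 0.02, 0.12 and 0.07. Of all genes 15.7% changed in WAT, 7.54% in LIV and 13.6% in SM, in either direction. Slc25a22, the mitochondrial glutamate carrier, rose in WAT (0.42), LIV (0.61) and SM (1.18). Slc15a4, which exports histidine and small peptides from lysosomes, rose in WAT (0.52) and SM (0.96), and the lysosomal cystine exporter Ctns rose in SM (0.49). Slc25a15, the mitochondrial ornithine carrier, fell in WAT (−0.52) and SM (−0.46). Slc17a8, a vesicular glutamate carrier, rose in LIV (1.11). Slc16a10 (TAT1), a carrier of aromatic amino acids, rose in LIV (0.44) and fell in SM (−0.47).

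Of 21 measured genes of the response to amino acid shortage, 4 rose and 8 fell in WAT, 3 rose and 1 fell in LIV, and 8 rose and 2 fell in SM, beside 15.7%, 7.54% and 13.6% of all genes in either direction, with medians of 0, −0.01 and 0.18. Chac1, which degrades glutathione, rose in WAT (1.88) and SM (1.15) and fell in LIV (−0.75). The phosphatase subunit Ppp1r15a, which ends the block of translation, rose in WAT (0.94) and SM (1.80), and the transcription factor Cebpb rose in LIV (0.64) and SM (1.39). Trib3, an inhibitor of the response, rose in WAT (0.95). Cth, which makes cysteine, fell in WAT (−1.04) and rose in SM (0.69). The other falls in WAT were those of Psat1 (−0.84), Psph (−0.83), Vldlr (−0.73), Aldh18a1 (−0.6), Phgdh (−0.57), Mthfd2 (−0.49) and Shmt2 (−0.48). Asns, which makes asparagine and is a known target of Atf4, fell in SM (−0.79) and rose in LIV (1.15), so members of the list did not share a direction.

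Of 32 measured genes that pass amino acid supply to mTORC1 at the lysosome, 7 rose and 3 fell in WAT, 2 rose in LIV, and 6 rose in SM, beside the same shares of all genes, with medians of 0.05, −0.03 and 0.11. Ddit4, an inhibitor of mTORC1, rose in WAT (2.97), LIV (2.16) and SM (4.15). Sesn2, a leucine sensor that holds mTORC1 inactive, rose in all 3 (1.32, 0.78 and 0.71), and Sesn1 rose in WAT (0.72) and SM (1.92). Sesn3 went the other way: it fell in WAT (−0.47), and its difference of −0.37 in SM was below 1.3-fold. Flcn, which acts on the Rag GTPases, rose in WAT (1.04) and SM (0.66). Lamtor1, the anchor of the complex on the lysosome, fell in WAT (−0.86).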

How the data were processed

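Affymetrix Mouse Gene 1.1 ST arrays of 30 tissue samples were used. The deposited log2 values were made by the authors by RMA in Partek (background correction, quantile normalization, median polish), so a change in total mRNA per tissue would not be seen. Array medians ranged from 4.915 to 5.156. Among the 28815 probe sets, 21153 could be assigned to 1 gene through the platform annotation, 1867 to more than 1, and 5795 had no entry there. The probe set of highest mean stood for a gene.

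Means of the 6 groups were fitted to 28 arrays with limma 3.58.1 in R 4.3.3 (empirical Bayes, prior degrees of freedom 4.24), with Benjamini-Hochberg adjustment over all probe sets. Contrasts were fasted minus fed, differences of these changes, and fed tissues. The number of arrays limits the precision. Figures and tables used Python 3.11.15.

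The study's methods gave the model, the 5% false discovery rate and the 1.3-fold minimum. The arrays left out are fed LIV 4 and fasted SM 5. The study's text names fasted SM 1 instead, which was run as an alternative. Members and lists were chosen with earlier results of these data known. Members called in at least 2 tissues and the 4 largest rises and falls of a tissue were named in full. Up to 4 genes per list and tissue were chosen by the size of their change, and some related genes of the lists were named beside them. Same-numbered fed and fasted arrays did not deviate together (r from −0.25 to 0.16 over 13 pairs). The tissues share the same mice, but whether arrays of 1 number came from 1 mouse is not stated (r across tissues from −0.06 to 0.16 in fed and from −0.12 to 0.18 in fasted mice, 13 pairs each).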

Additional observations from a re-analysis of the deposited data

Results flagged for a closer look

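On 5 arrays a member lay apart from the other arrays of its group. These were Slc1a2 on fasted LIV 3 (9.71, others 9.83 to 9.88), Slc38a9 on fed WAT 4 (7.94, others 7.68 to 7.74), Slc3a2 on fasted SM 1 (10.17, others 10.07 to 10.09), Slc43a2 on fasted WAT 2 (7.58, others 7.81 to 7.89) and Slc6a21 on fed LIV 5 (3.68, others 3.38 to 3.41). In all, 66 groups of values were examined, and chance gives such a reading in about 1 of 20 groups. None of these arrays crossed into the range of the other diet.

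For 22 members the fasting change differed between tissues in limma's interaction test, and the largest difference of each is given. The 22 pool 3 comparisons per member, and the share of all genes that differ in at least 1 of them is not given. In the single comparisons 15.1% to 16.1% of all genes differed. WAT minus LIV was 1.81 for Slc7a8, 1.77 for Slc6a6, 1.02 for Slc1a4, 0.86 for Slc36a1, 0.50 for Slc3a2, −0.50 for Slc38a5, −1.02 for Slc6a13 and −1.02 for Slc6a21. WAT minus SM was 0.73 for Slc6a8, 0.51 for Slc38a2, −1.06 for Slc7a1, −1.13 for Slc7a6, −1.70 for Slc38a3 and −2.17 for Slc7a2. SM minus LIV was 2.25 for Slc43a1, 0.88 for Slc43a2, 0.87 for Slc1a1, 0.57 for Slc7a5, 0.38 for Slc38a7, −0.39 for Slc36a4, −0.51 for Slc1a2 and −0.83 for Slc38a6. Slc36a4, Slc38a5 and Slc38a7 had no called change within a tissue. The difference of Slc7a5 had an adjusted p of 0.045 and did not pass in 23 of 40 settings (adjusted p up to 0.115), that of Slc38a7 in 12 of 40, each time through the fold minimum, and that of Slc36a4 in 10 of 40, of which 9 were through the fold minimum.

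The left-out array fasted SM 5 had a mean of 8 lymphocyte markers of 8.35, against 4.04 to 4.30 on the other SM arrays. On the same array Slc38a1, a glutamine carrier also known from lymphocytes, was at 7.83, against 4.30 to 4.83 on the other SM arrays.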

How the results depend on the processing

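No called change of a member, or called difference between tissues, reversed direction under the 39 to 44 settings in which each was run, of 45 in all, 28 of which left out 1 array. Changes that were not called were not run again. Of the 33 changes called, 20 were kept under every setting, 9 were lost only through the fold minimum, and 4 were lost through the adjusted p under some setting (Slc1a5 and Slc7a5 in SM, Slc6a9 and Slc7a2 in WAT). Of the 40 differences called, 29 were kept under every setting, 6 were lost only through the fold minimum and 5 through the adjusted p (Slc1a2, Slc36a4 and Slc7a5 for SM minus LIV, Slc38a5 and Slc7a2 for WAT minus LIV). The counts that follow are of members only. The shares of all genes under the same settings are not given, so these counts are not read against a background. A minimum of 1.5-fold in place of 1.3-fold left 6 members in WAT, 4 up and 2 down. Without 1 array the count was 11 to 15 in WAT, 5 to 6 in LIV and 11 to 13 in SM, and the count of members whose change differed was 14 to 16 for WAT and LIV, 9 to 11 for WAT and SM, and 14 to 17 for SM and LIV. With all 30 arrays, or with fasted SM 1 left out in place of fasted SM 5, the counts in WAT, LIV and SM were 12, 6 and 13. With the replicate number as a block they were 11, 6 and 13, and since fed and fasted arrays share only a number this is not read as a weaker effect. With arrays of 1 number and diet taken as 1 mouse, as a random block, they were 13, 6 and 14, and the differences 14, 9 and 17, as without it. Fits with a marker mean as a covariate and the sets of 29 arrays were chosen after seeing the data. With 4 or 5 arrays per group, small changes of dim members may have been missed.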

Other observations

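On the left-out array fasted SM 5, Slc7a11 was at 4.50 (other fasted SM arrays 3.24 to 3.39) and Slc1a2 at 4.40 (3.51 to 3.85). On the left-out array fed LIV 4, Slc38a9 was at 7.08 (other fed LIV arrays 7.55 to 7.70), Slc1a2 at 8.96 (9.32 to 9.52) and Slc6a13 at 10.92 (11.34 to 11.38). On fasted SM 3, the epididymis gene Adam7 was at 5.62, against 2.71 to 2.92 on the other SM arrays used.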
